A study of Homo sapiens with 4 samples.

Results

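Cytokine receptors signal through Janus kinases (JAKs), which phosphorylate STAT transcription factors, and several protein families hold this signal in check. SOCS proteins (SOCS1, SOCS2, SOCS3 and CISH) are themselves products of STAT target genes, bind receptors or JAKs through an SH2 domain and recruit a ubiquitin ligase through their SOCS box. PIAS proteins (PIAS1 to PIAS4) bind STATs and other transcription factors in the nucleus and act as SUMO ligases, and the phosphatases PTPN1 (PTP1B) and PTPN2 (TC-PTP) remove phosphate from JAKs and STATs. These 10 genes were selected by name as negative regulators of JAK-STAT signaling, and all 10 were found among the 37515 Ensembl genes counted.

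Expression was measured by RNA-seq in Caco-2, a human colorectal carcinoma cell line used as a model of intestinal epithelium. The cells were grown on transwell filters and were otherwise unmodified. A pair of libraries (replicates 1 and 2) came from unstimulated cells at 0 h, and another pair from cells given 60 ng/ml IFNγ on the basal side for 3 h. Since no cells were sampled at 3 h without IFNγ, the cytokine and the elapsed time cannot be told apart, and nothing in the labels says whether replicates were separate cultures, so p-values measure only the spread between these libraries. The libraries held 7171455 to 10365346 counts. All 12 epithelial marker genes examined were tested, with a summed level of 9369 to 10106 CPM (counts scaled to library size) at 0 h and 11031 to 11535 CPM at 3 h. Single markers went both ways, with SI falling from 429 to 196 CPM on average and CDX2 rising from 177 to 407 CPM. A list of 8 leukocyte markers summed to 12.5 to 16.2 CPM over the 4 libraries. Of these 5 were tested, with CD14 the highest at 34 to 65 counts, and PTPRC, which encodes the leukocyte antigen CD45, had 0 to 2 counts. The 3 endothelial markers summed to 1.26 to 2.32 CPM, with VWF at 8 to 18 counts and KDR at 0 in each library. The 5 fibroblast markers summed to 102 to 196 CPM, most of it COL1A1. COL3A1 had 53 to 117 counts and PDGFRB 30 to 68, while COL1A2 and DCN had at most 1 count. As a check of the labels, 13 known IFNγ targets were examined. The 6 with at least 10 counts in every library rose, 5 others passed the filter on low counts only through the IFNγ libraries, and CIITA and CXCL10 were not tested. Among the 6 was the transcription factor IRF1, which had 198 and 144 counts at 0 h and 12348 and 7949 at 3 h.

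The promoter windows of 4 inhibitors are printed here. Those of CISH and SOCS1 carry the only STAT or interferon motifs found in the windows searched. The others belong to the genes that changed by more than 2-fold (PTPN1 and PIAS1). Each window runs from 250 bases before to 50 bases after a RefSeq start on GRCh38.p14, 5′ to 3′ on the strand of the gene, and capitals mark matches to the motifs named after them.
SOCS1 (chr16:11256155-11256454, minus strand): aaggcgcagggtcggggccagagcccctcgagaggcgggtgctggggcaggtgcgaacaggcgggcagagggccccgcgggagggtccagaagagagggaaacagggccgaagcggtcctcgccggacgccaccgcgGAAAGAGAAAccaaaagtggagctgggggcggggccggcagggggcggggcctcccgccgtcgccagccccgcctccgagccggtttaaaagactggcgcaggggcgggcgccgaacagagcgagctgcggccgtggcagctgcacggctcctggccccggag
CISH (chr3:50611725-50612024, minus strand): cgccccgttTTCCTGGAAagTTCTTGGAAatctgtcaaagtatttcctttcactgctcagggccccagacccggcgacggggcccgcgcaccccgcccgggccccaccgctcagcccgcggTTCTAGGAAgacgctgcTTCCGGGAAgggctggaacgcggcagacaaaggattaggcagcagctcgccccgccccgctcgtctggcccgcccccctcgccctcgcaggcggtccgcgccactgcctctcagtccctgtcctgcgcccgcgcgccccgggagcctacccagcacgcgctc
PTPN1 (chr20:50510133-50510432, plus strand): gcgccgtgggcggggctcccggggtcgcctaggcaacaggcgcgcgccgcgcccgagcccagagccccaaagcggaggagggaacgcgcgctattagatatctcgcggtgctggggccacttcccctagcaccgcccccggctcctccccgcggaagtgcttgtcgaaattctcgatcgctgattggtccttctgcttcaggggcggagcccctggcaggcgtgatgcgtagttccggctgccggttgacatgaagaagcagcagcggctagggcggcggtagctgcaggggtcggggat
PIAS1 (chr15:68054065-68054364, plus strand): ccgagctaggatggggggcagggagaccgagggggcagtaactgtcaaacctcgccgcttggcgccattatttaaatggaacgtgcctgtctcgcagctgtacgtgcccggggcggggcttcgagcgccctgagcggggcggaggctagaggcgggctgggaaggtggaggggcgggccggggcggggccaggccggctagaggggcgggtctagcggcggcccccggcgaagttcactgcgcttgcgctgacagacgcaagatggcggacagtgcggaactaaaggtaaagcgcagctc
RefSeq windows were found for 9 of the 10 genes, 12 windows in all, since SOCS3, PIAS1 and PIAS2 have more than 1 annotated start. SOCS2 had no window and was not searched. For PIAS1 only 1 of its windows is printed above. The gamma-activated sequence (GAS), the motif of STAT dimers, was searched as TTCNNNGAA, which reads the same on both strands. It was found in 1 of the 12 windows, that of CISH, which held 4 copies, TTCCTGGAA, TTCTTGGAA, TTCTAGGAA and TTCCGGGAA, that begin 241, 230, 129 and 112 bases before the start. Over all 35116 windows of this length, 7.66% held at least 1 GAS match. The interferon-stimulated response element (ISRE), a motif of interferon regulatory factors and of STAT complexes, was searched on both strands as GAAA, any 2 bases and GAAA again, and was found in the SOCS1 window alone, as GAAAGAGAAA beginning 113 bases before the start. Of all windows 3.57% held it. Matches of the GAS and the ISRE shared no base in these windows, and a match is a description of the letters in the window only. Sequence outside the windows, including any other start of SOCS3 or PTPN2, was not searched. A window without a match therefore does not show that the gene lacks the motif.

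The 10 inhibitors did not move as a group. To pass the test a gene needed an adjusted p-value (Benjamini-Hochberg, over the 14820 genes tested) under 0.05, and changes above 2-fold, that is a log2 fold change beyond 1 in either direction, are named as such. Of the 10 genes, 2 rose (PTPN1 and SOCS3) and 2 fell (PIAS1 and PTPN2), against 9.02% of all tested genes that rose and 11.0% that fell, 20.0% in all. More than 2-fold, 1 rose (PTPN1) and 1 fell (PIAS1), against 2.88% and 4.40% of all tested genes, or 7.28% in either direction. Their median log2 fold change was 0.34, and that of all tested genes was -0.01. Both IFNγ libraries lay above both unstimulated libraries for 5 of the 10 genes and below them for 3. Of all tested genes 31.6% were separated upward and 30.8% downward in this way, 62.4% in all, so such a separation is common in these libraries. In these bulk libraries fewer cells that express a gene and less RNA per cell cannot be told apart.

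**Figure D1:**
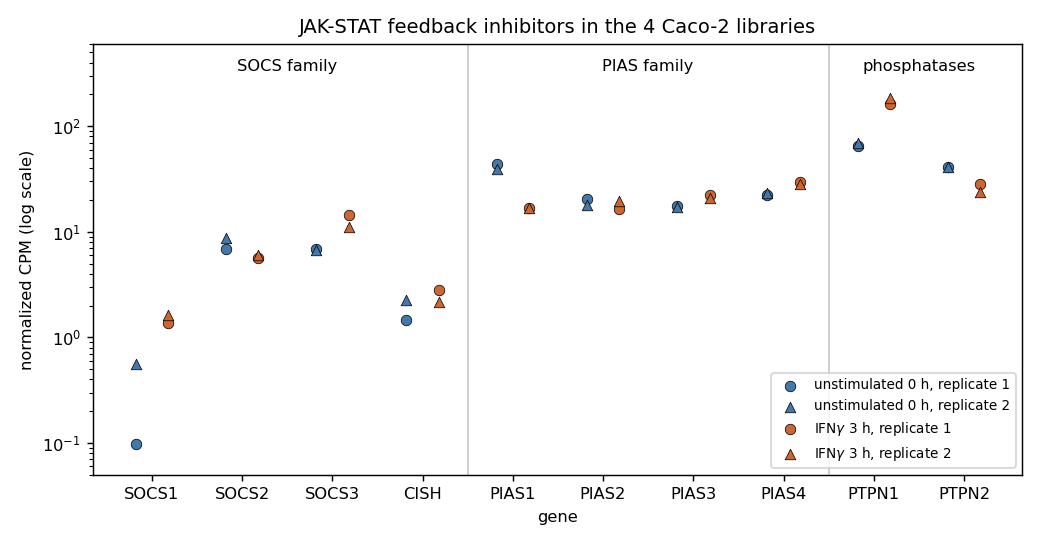
Normalized CPM (log axis) of each inhibitor in the 4 libraries, with circles for replicate 1 and triangles for replicate 2. PTPN1 rose from 65.5 and 69.3 CPM to 161 and 185 CPM, PIAS1 fell from 41.5 to 16.8 CPM on average, and SOCS1 was the lowest of the 10 at 0 h.

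The phosphatases PTPN1 and PTPN2, close relatives that act on different JAKs and STATs, moved in opposite directions. PTPN1 (ENSG00000196396, chromosome 20), which dephosphorylates JAK2 and TYK2, had 673 and 495 counts at 0 h and 1654 and 1359 counts at 3 h. Scaled to library size this was 67.4 ± 2.70 (SD, n = 2) CPM and 173 ± 17.4 (SD, n = 2) CPM. Both IFNγ libraries stood far above both unstimulated libraries. The log2 fold change was 1.36 (standard error 0.125, 95% confidence interval 1.07 to 1.65, adjusted p = 0.00127, quasi-likelihood F-test of edgeR), a 2.57-fold rise that ranked 273 from the top among the 14820 tested genes. It passed the test under each of the 9 alternative settings and in each of the 4 fits that left out a library, with values from 1.21 to 1.45. An antisense gene overlaps 138 bases (3.41%) of its exons and had at most 5 counts in any library.

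PTPN2 (ENSG00000175354, chromosome 18), which dephosphorylates JAK1 and nuclear STATs, had 421 and 295 counts at 0 h and 293 and 173 counts at 3 h. Its level was 41.2 ± 0.238 (SD, n = 2) CPM and then 26.1 ± 3.46 (SD, n = 2) CPM, so both IFNγ libraries were the lower ones. The log2 fold change was -0.65 (standard error 0.151, 95% confidence interval -1.01 to -0.30, adjusted p = 0.0232 from edgeR). The call rested on narrow margins. It was lost without unstimulated replicate 1 (adjusted p = 0.0726), without unstimulated replicate 2 (0.0678) and without IFNγ replicate 2 (0.0697), though the value stayed between -0.81 and -0.55 with any library left out. With the GC and length trend removed the log2 fold change was -0.39 (adjusted p = 0.101 from edgeR), a move of more than 1.5 times that ended the call. The processed pseudogenes PTPN2P1 and PTPN2P2, which could share reads with it, had 10 to 20 and 1 to 4 counts.

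Within a library, the reads per kilobase of exon at the CPM scale (RPKM) of PTPN1 were 3.45 and 3.62 times those of PTPN2 at 0 h and 12.2 and 16.9 times at 3 h. PTPN1 thus made up 77.9 ± 0.589% (SD, n = 2) of the summed RPKM of the pair before and 93.4 ± 1.43% (SD, n = 2) after IFNγ. The ratio was above 3.62 in both IFNγ libraries, but an exact two-sided permutation test of 2 libraries against 2 cannot go below p = 0.333. The ratio depended on the length used. With the length of the longest transcript instead of all exons, a choice made after the data were seen, it was 1.39 and 1.46 at 0 h and 4.92 and 6.85 at 3 h, and the share of PTPN1 was 58.8% and then 85.2% on average.

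**Figure D2:**
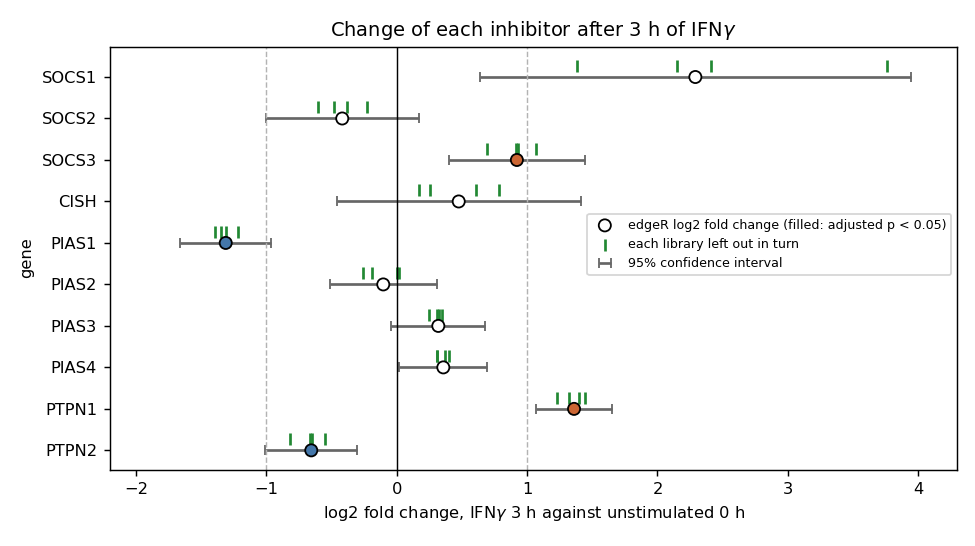
Log2 fold change of each inhibitor at 3 h of IFNγ against 0 h (circles, filled where the adjusted p-value was under 0.05) with its 95% confidence interval (bars) and the values with each library left out in turn (green ticks). The interval of PTPN1, 1.07 to 1.65, lay wholly above 1, while that of SOCS1 ran from 0.64 to 3.94.

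Of the PIAS family, PIAS1 alone passed the test. PIAS1 (ENSG00000033800, chromosome 15), which blocks binding of activated STATs to DNA and is a SUMO ligase, had 452 and 279 counts at 0 h and 171 and 124 counts at 3 h. Its level fell from 41.5 ± 3.48 (SD, n = 2) CPM to 16.8 ± 0.202 (SD, n = 2) CPM, and the libraries of each condition lay close together and far from those of the other. The log2 fold change was -1.31 (standard error 0.148, 95% confidence interval -1.66 to -0.96, adjusted p = 0.00225 from edgeR), so the unstimulated level was 2.48-fold the stimulated one. It ranked 446 from the lowest of the tested genes, and it passed the test in each of the 4 fits that left out a library (-1.39 to -1.22).

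With the GC and length trend removed, its log2 fold change was -0.94 (adjusted p = 0.00557 from edgeR), which passed the test but not the 2-fold threshold. CALML4, a gene of the calmodulin-like family on the opposite strand, overlaps 3261 bases (30.6%) of the annotated PIAS1 exons. A further antisense gene, ENSG00000260007, overlaps 2934 bases (27.6%) and was not analysed here, and whether reads were counted by strand is not given. CALML4 itself had 366 and 224 counts at 0 h and 304 and 228 at 3 h, with a log2 fold change of -0.15 (95% confidence interval -0.48 to 0.19) that did not pass the test (adjusted p = 0.508 from edgeR). The part of these overlaps in the PIAS1 value was not tested.

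The other PIAS genes gave small differences. PIAS4, which like PIAS1 attaches SUMO to transcription factors and has been placed in interferon and NFκB signaling, had 22.1 and 23.5 CPM at 0 h and 29.9 and 28.5 CPM at 3 h. The libraries of each condition stood apart, and the log2 fold change of 0.36 had a 95% confidence interval of 0.02 to 0.69 and an adjusted p-value of 0.122 from edgeR. PIAS3, named as an inhibitor of STAT3, had 17.4 and 17.2 CPM and then 22.5 and 20.7 CPM. Its log2 fold change was 0.32 (95% confidence interval -0.04 to 0.68, adjusted p = 0.185 from edgeR). PIAS2, also a SUMO ligase and a partner of nuclear hormone receptors, had 20.4 and 17.9 CPM and then 16.3 and 19.6 CPM, so its groups overlapped. Its log2 fold change of -0.10 (95% confidence interval -0.51 to 0.31, adjusted p = 0.716 from edgeR) turned to 0.40 with the GC and length trend removed (adjusted p = 0.194 from edgeR), and to 0.015 without IFNγ replicate 1.

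Summed over the 4 PIAS genes the RPKM was 15.0 ± 0.172 (SD, n = 2) at 0 h and 15.3 ± 0.369 (SD, n = 2) at 3 h, a difference within the spread of the libraries. The make-up of the sum was not the same. PIAS1 gave 26.0 ± 1.88% (SD, n = 2) of it in the unstimulated libraries and 10.3 ± 0.373% (SD, n = 2) in the IFNγ libraries. Relative to PIAS4 in the same library, PIAS1 stood at 0.665 and 0.555 before and at 0.186 and 0.198 after IFNγ. The longest transcripts hold 40.2% (PIAS1) and 61.7% (PIAS4) GC, and the part of GC content in this ratio was not tested.

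**Figure D3:**
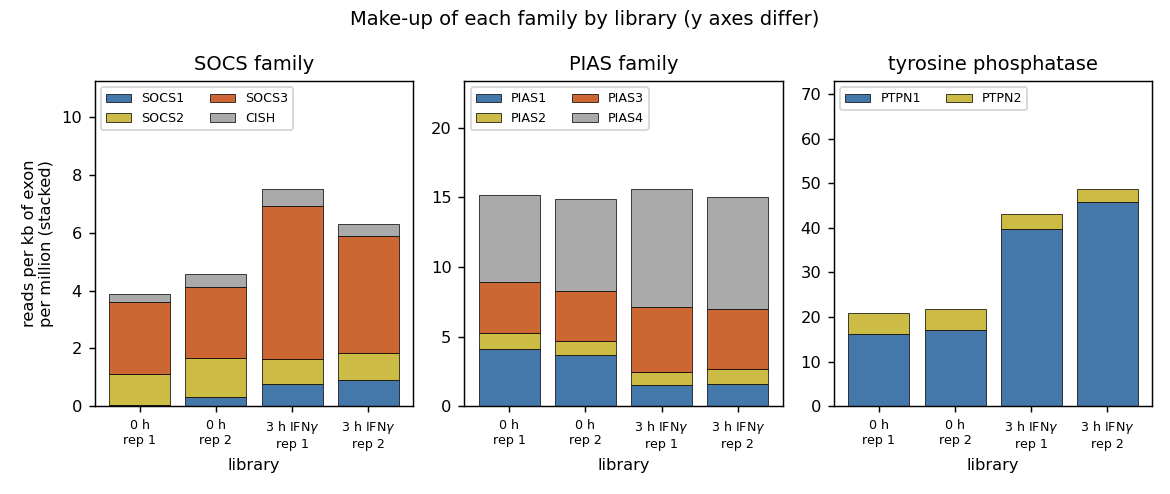
Stacked RPKM of the SOCS, PIAS and phosphatase genes in each library, each family on its own linear axis from 0. The PIAS total stayed near 15 while the PIAS1 layer shrank, the phosphatase total went from 20.9 and 21.9 to 43.1 and 48.6 RPKM, and the SOCS total from 3.89 and 4.58 to 7.49 and 6.32 RPKM.

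Of the SOCS genes, SOCS3 passed the test and SOCS1 had the largest but least certain difference. SOCS3 (ENSG00000184557, chromosome 17), which binds the IL-6 family receptor chain gp130 and JAKs and is a direct target of STAT3, had 70 and 48 counts at 0 h and 149 and 81 counts at 3 h. It rose from 6.77 ± 0.0644 (SD, n = 2) CPM to 12.8 ± 2.43 (SD, n = 2) CPM. The 2 IFNγ libraries differed from each other (14.5 and 11.1 CPM) and both were above the unstimulated ones. The log2 fold change was 0.92 (standard error 0.224, 95% confidence interval 0.40 to 1.45, adjusted p = 0.0280 from edgeR), just under the 2-fold threshold. This call depended on the libraries and the tool. The adjusted p-value from edgeR was 0.0834 without unstimulated replicate 1, 0.0780 without unstimulated replicate 2 and 0.127 without IFNγ replicate 1, and DESeq2 gave 0.0679. With the GC and length trend removed the log2 fold change was 0.64 (adjusted p = 0.0912 from edgeR).

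SOCS1 (ENSG00000185338, chromosome 16), the SOCS protein that inhibits JAK1 and JAK2 at the IFNγ receptor, was near the floor of detection. It had 1 and 4 counts at 0 h and 14 and 12 counts at 3 h, that is 0.0974 and 0.560 CPM and then 1.36 and 1.64 CPM. Both IFNγ libraries were higher, but it passed the filter on low counts only through them. Pooled over libraries, the ratio of normalized counts was 5.14 (26 against 5 counts, exact 95% counting interval 1.94 to 17.1, which covers counting error only). The fitted log2 fold change of 2.29 (95% confidence interval 0.64 to 3.94) had an unadjusted p-value of 0.0132 and an adjusted p-value of 0.0597 from edgeR, so it did not pass the test. Single libraries decided its size, with a log2 fold change of 1.38 (adjusted p = 0.315) without unstimulated replicate 1 and of 3.76 (adjusted p = 0.0422) without unstimulated replicate 2. No other annotated exon overlaps those of SOCS1 or SOCS3.

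SOCS2 and CISH, targets of STAT5 that dampen growth hormone, prolactin and erythropoietin signaling, did not pass the test. SOCS2 had 70 and 63 counts at 0 h and 58 and 44 counts at 3 h, lower in both IFNγ libraries also after scaling. The log2 fold change of -0.42 had a standard error of 0.251 and did not pass (adjusted p = 0.280 from edgeR). CISH, whose window held the 4 GAS matches printed above, had 15, 16, 29 and 16 counts in unstimulated replicates 1 and 2 and IFNγ replicates 1 and 2. Its groups overlapped at 1.46 and 2.24 CPM against 2.82 and 2.18 CPM, and the log2 fold change was 0.48 (95% confidence interval -0.46 to 1.41, adjusted p = 0.440 from edgeR). With so few counts a change of CISH within this interval was not excluded.

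Per kilobase of exon, the order of the 10 genes at 0 h was led by PTPN1 at 16.7 ± 0.668 (SD, n = 2) RPKM. PIAS4 followed at 6.42, PTPN2 at 4.72, PIAS1 at 3.90, PIAS3 at 3.61 and SOCS3 at 2.48 RPKM, and the libraries of these neighbours did not overlap. SOCS2 (1.21) and PIAS2 (1.09) could not be told apart in order, nor could CISH (0.366) and SOCS1 (0.184). At 3 h PTPN1 (42.8 RPKM) and PIAS4 (8.21) still led. SOCS3 (4.67) had come level with PIAS3 (4.50), whose libraries overlapped with it, ahead of PTPN2 (2.99), PIAS1 (1.58) and PIAS2 (1.03). SOCS2 (0.899) and SOCS1 (0.839) overlapped, and CISH (0.495) was last. The order changed with the length used. With the length of the longest transcript instead, a choice made after the data were seen, PTPN2 stood at 11.9 RPKM at 0 h, above PIAS4 at 7.44, and at 7.51 RPKM at 3 h, overlapping PIAS3 at 7.45. SOCS3, at 4.67 RPKM at 3 h by either length, was then below both PTPN2 and PIAS3, and did not overlap PIAS3. At 0 h PIAS3 (5.97) was then above PIAS1 (5.21), and SOCS2 (2.095) above PIAS2 (1.71), without overlap. At 3 h SOCS2 (1.56) then overlapped PIAS2 (1.60) and not SOCS1 (0.84).

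The log2 fold change of the 14518 tested genes with an annotated transcript rose with GC content (Spearman rho across genes 0.431, with the libraries shared by all genes) and the values of most inhibitors differed in the same sense. The 3 members of lowest GC content, PIAS2 (39.4%), PTPN2 (39.8%) and PIAS1 (40.2%), were among the 4 with negative values. SOCS1 (69.1%), PIAS4 (61.7%) and SOCS3 (60.0%) had positive values. In the bin of 38 to 40% GC the median of all tested genes was -0.36, and in that of 60 to 62% it was 0.21. PTPN1, at 49.2% GC, lay near the middle of this range and was still at 1.21 with the GC and length trend removed (adjusted p = 0.000772 from edgeR). PIAS3 and PIAS4 were then at 0.06 and 0.07. With the trend removed, 1 member rose (PTPN1) and 1 fell (PIAS1), against 1252 and 1235 of the 14518 genes.

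**Figure D4:**
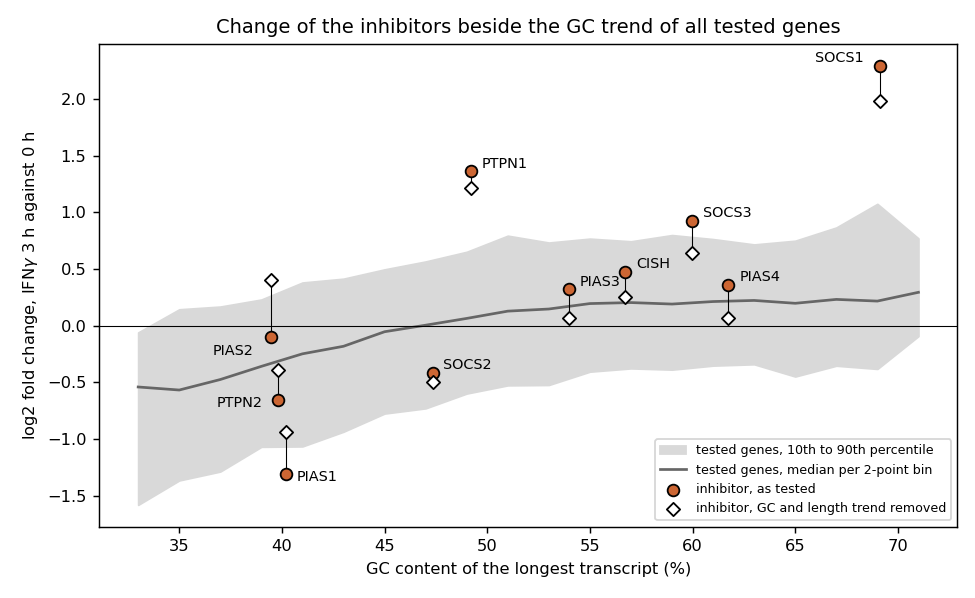
Log2 fold change of each inhibitor against the GC content of its longest transcript, as tested (orange) and with the GC and length trend removed (white diamonds), over the median and the 10th to 90th percentile of all tested genes in 2-point bins. PTPN1, SOCS1 and SOCS3 lay above the band and PIAS1 below it as tested, while PIAS2 moved from -0.10 to 0.40.

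The other genes of these mechanisms gave a mixed picture. Of the SOCS genes outside the 10, SOCS5, which has been tied to EGF receptor and IL-4 signaling, fell (log2 fold change -0.76, adjusted p = 0.0130 from edgeR, and -0.34 with adjusted p = 0.170 with the GC and length trend removed). SOCS4 (-0.24) and SOCS6 (0.23) did not pass the test, although SOCS6 did with the trend removed (0.70, adjusted p = 0.0204), and SOCS7 was not analysed here. Of 6 partners that form the SOCS-box ubiquitin ligase, the scaffold CUL5 fell more than 2-fold (-1.07, adjusted p = 0.00475, and -0.52 with the trend removed) and the RING subunit RNF7 rose (0.63, adjusted p = 0.0121). ELOB (0.29), ELOC (0.42), RBX1 (-0.07) and CUL2 (-0.41) did not pass the test, although ELOC did with the trend removed (0.91, adjusted p = 0.0115).

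Of 12 genes of the SUMO pathway that PIAS ligases use, 2 rose and 3 fell, with a median log2 fold change of 0.01. Of all tested genes 9.02% rose and 11.0% fell. SUMO3, which encodes a SUMO protein, was among those that rose (0.57). The SUMO proteases SENP1, SENP6 and SENP7 fell, with SENP7 at -1.49 (adjusted p = 0.0157 from edgeR). None of the 5 passed the test with the GC and length trend removed, with SENP7 then at -0.97 (adjusted p = 0.0547 from edgeR).

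Of 13 other phosphatases, adaptors and ubiquitin-pathway genes that act on cytokine signaling, most of them as brakes, 9 were tested. Of these 9 genes 2 rose and 3 fell, against 9.02% and 11.0% of all tested genes. SH2B3 (LNK), an adaptor that inhibits JAK2, rose from 12.1 to 28.2 CPM (log2 fold change 1.21, adjusted p = 0.00427 from edgeR), and PDLIM2, a ubiquitin ligase for STATs, rose by a log2 fold change of 0.61. The phosphatase PTPN11 (SHP2), the adaptor SH2B1, known to enhance JAK2 activity, and the ubiquitin ligase CBLB fell (-0.56, -0.67 and -0.98), but PTPN11 did not pass the test with the GC and length trend removed (-0.26, adjusted p = 0.145). USP18, which blocks the type I interferon receptor, had 21 and 16 counts at 0 h and 61 and 28 at 3 h but did not pass the test (log2 fold change 1.20, adjusted p = 0.0523 from edgeR, and 1.29 with adjusted p = 0.0422 with the trend removed). PTPRC, PTPN22, PTPRT and PTPRD had at most 6 counts in any library.

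The kinases and receptors on which the inhibitors act differed among themselves. IFNGR1, the ligand-binding chain of the IFNγ receptor, rose (0.78, adjusted p = 0.00938 from edgeR) and IFNGR2, its signaling chain, fell (-0.51, adjusted p = 0.0398). JAK1 (0.36), JAK2 (-0.32) and TYK2 (-0.17) did not pass the test, although JAK1 did with the trend removed (0.44, adjusted p = 0.0328), and JAK3 had 0 counts in each library. Of the STATs that drive SOCS2, SOCS3 and CISH in other settings, STAT3 rose (1.14, adjusted p = 0.00152) and STAT5B was at 0.04. STAT5A had 8 and 3 counts at 0 h and 21 and 21 at 3 h (1.93, adjusted p = 0.0329), and it passed the filter on low counts only through the IFNγ libraries. With the GC and length trend removed it had an adjusted p-value of 0.0503, and it was not tested when at least 10 counts were required in every library.

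Genes known to respond to STAT3 or STAT5 also went both ways. Of 12 such genes 5 rose and 4 fell, against 9.02% and 11.0% of all tested genes, with a median log2 fold change of 0.49. This list was chosen with earlier results of these data known. BCL2L1 (1.36), MCL1 (1.09) and BCL3 (1.03), which code for survival proteins and an NFκB cofactor, rose more than 2-fold, and the kinase gene PIM1 fell (-1.17, adjusted p = 0.00267 from edgeR). With the GC and length trend removed 4 of the 12 rose and 3 fell, and BCL3, at 0.72, was under the 2-fold threshold. Of 11 tested cytokine receptor chains 1 rose and 2 fell, beside the same 9.02% and 11.0% of all tested genes. IL4R, the IL-4 receptor chain, rose (1.83, adjusted p = 0.000466 from edgeR), whereas the prolactin receptor PRLR fell (-0.72, and -0.17 with adjusted p = 0.343 with the GC and length trend removed) and IL6ST (gp130), to which SOCS3 binds, fell (-1.02, adjusted p = 0.00412 from edgeR, and -0.43 with adjusted p = 0.0378 with the GC and length trend removed).

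**Figure D5:**
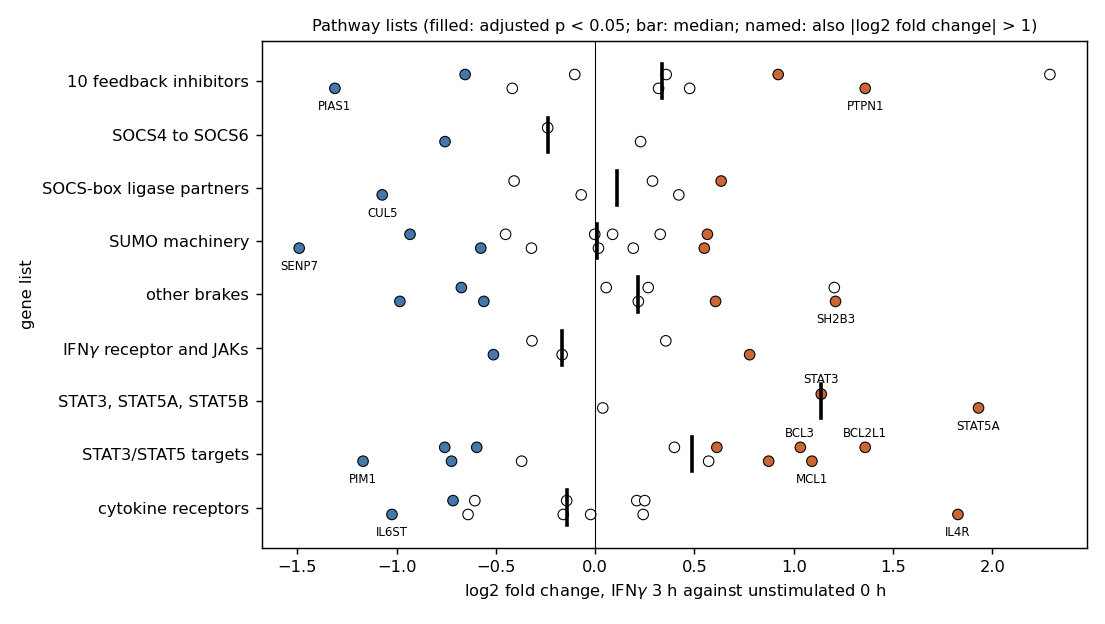
Log2 fold change of every tested gene in each pathway list (dots, orange where it rose and blue where it fell at an adjusted p-value under 0.05), with the median of the list as a bar and changes above 2-fold named. Of the lists drawn, each except the 3 STAT genes held genes on both sides of 0, with medians from -0.24 for the other SOCS genes to 1.14 for the STAT genes.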

How the data were processed

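RNA-seq libraries (TruSeq kit, total RNA) of 4 Caco-2 samples were compared, 2 unstimulated at 0 h and 2 after IFNγ for 3 h, grouped by the sample titles. The authors deposited raw read counts per Ensembl gene, without normalization or pooling. The submitters' processing notes name HISAT 0.5.1 and HTSeq 0.6.1p1, while the genome build, the annotation and the strand setting are not given in the sources used here. A value of 1 CPM stood for 7.14 to 10.3 counts, and each condition had 2 libraries.

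Genes passing edgeR's default filter (14820 of 37515) were scaled by TMM and tested with the quasi-likelihood F-test of edgeR 4.0.16 in R 4.3.3, with adjusted p-values (Benjamini-Hochberg) over all tested genes. The standard error of a log2 fold change was its size over the root of the F statistic, and CPM were scaled by the TMM-adjusted library size. Symbols (96.5% of identifiers), exon lengths, GC content of the longest transcript and exon overlaps came from GENCODE 44 on GRCh37, and promoter windows from RefSeq on GRCh38.p14. Alternatives were other scalings, DESeq2 1.42.0, other count filters, the replicate number as a block, each library left out, and a loess trend of GC content and length removed from each library. Simulated counts were used to test the main fit, DESeq2, the replicate block and the loess-corrected fits. The other scalings, the other count filters and the fits that left out a library were not tested in this way. The text names the 10 inhibitors, all genes of pathway lists of at most 6 genes, and from longer lists those above the 2-fold threshold, with some other genes of those lists named after their values were seen. The inhibitors and lists were chosen with earlier results of these data known.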

Additional observations from a re-analysis of the deposited data

How the results depend on the processing

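Of 89 values of the 10 inhibitors under the 9 alternatives, 81 kept their direction and were not seen to cross the adjusted p-value of 0.05. These include SOCS1 and CISH with DESeq2, which kept their direction only, since they had no adjusted p-value there. PTPN1 and PIAS1 passed the test under all 9, with log2 fold changes from 1.21 to 1.40 and from -1.35 to -0.94. With DESeq2, SOCS3 had 0.91 (adjusted p = 0.0679), and SOCS1 and CISH had no adjusted p-value. Of the 11659 genes with an adjusted p-value there, 1046 rose, among them 1 inhibitor. Another 1425 fell, among them 2 inhibitors, PIAS1 and PTPN2 (adjusted p = 0.0235 from DESeq2 for PTPN2). With the GC and length trend removed, SOCS3 had 0.64, PTPN2 -0.39 and PIAS2 0.40. There 1 inhibitor rose and 1 fell, against 1252 and 1235 of 14518 genes. More than 2-fold, 0 inhibitors and 365 genes in all fell, compared with 652 genes with the trend kept. Without a filter on low counts SOCS1 had 2.30 (adjusted p = 0.0117) and 2 inhibitors rose more than 2-fold, as did 537 of 29357 genes in all. However, edgeR estimated an infinite prior there, so these p-values are not comparable. At least 10 counts in every library left SOCS1 untested. The cause of these shifts was not tested.

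The replicate numbers could not be shown to pair the libraries, since the labels do not say what they mark and there are 2 pairs (the deviations of same-numbered libraries correlated across genes, r = 0.415). With the replicate block SOCS1 had 2.30 (adjusted p = 0.0270) and 2 inhibitors rose more than 2-fold, as did 492 genes in all. By adjusted p-value alone 2596 genes in all rose and 2892 fell, against 1337 and 1626. With the GC and length trend removed and the replicate block, SOCS1 had 1.98 and PIAS2 0.38. SOCS3 (0.65, adjusted p = 0.0165) and PTPN2 (-0.40, adjusted p = 0.0195) passed the test. More than 2-fold, 2 inhibitors rose and 0 fell, against 433 and 598 genes in all. By adjusted p-value alone 2288 genes in all rose and 2787 fell.

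When single libraries were left out, the remaining one of a pair is assumed to vary like the other group. The inhibitors that rose numbered 1 to 2, those that rose more than 2-fold 1 to 2 and those that fell 1 to 2. Of all genes 752 to 1276 rose and 1093 to 2120 fell by adjusted p-value alone, and 352 to 445 rose and 504 to 1239 fell more than 2-fold. SOCS1 ran from 1.38 to 3.76, SOCS3 from 0.69 to 1.07, PTPN2 from -0.81 to -0.55 and PIAS2 from -0.26 to 0.015 (without IFNγ replicate 1). Of 234 counts of the pathway lists and the IFNγ targets under all alternatives, 197 stayed within 1.5 times their value.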
